A study of Homo sapiens with 6 samples.

Results

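A set of 10 kallikrein-related serine proteases of the cluster on human chromosome 19, KLK1, KLK5, KLK6, KLK7, KLK8, KLK9, KLK10, KLK11, KLK12 and KLK13, was followed in SW480 cells with and without added HNF4A. SW480 is an established colorectal cancer line, and HNF4A is a DNA-binding nuclear receptor that drives hepatocyte and enterocyte genes. Members were found by gene name, and the 10 names all had a row among the 59332 distinct names of the deposited table. The names were chosen from the mean FPKM values of this same comparison, with their place in the cluster, so their levels and differences below are a description and carry no test. FPKM is the number of sequenced fragments scaled by transcript length and by library total.

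Kallikreins are secreted as inactive precursors and become active once a short propeptide is cut off, often by another kallikrein or by a membrane-bound protease such as matriptase. Most cut after arginine or lysine, as trypsin does, while KLK7 cuts after large hydrophobic residues, as chymotrypsin does. In skin they form a cascade that loosens the junctions between shed cells and is held in check by inhibitors such as LEKTI, the product of SPINK5. Several are steroid-responsive in other tissues, KLK3 (prostate-specific antigen) being the best known, and several, KLK6 and KLK10 among them, have been studied as tumour markers, in colorectal cancer too.

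Paired-end RNA-seq was run on 3 control libraries and 3 HNF4A overexpression libraries, each named a biological replicate by the labels. The control titles read lenti and the overexpression titles lenti-HNF4a, so the control was probably SW480 carrying a lentiviral vector without HNF4A. All 6 libraries share the SW480 background, the same serum-supplemented medium and lysis in Trizol, and no added agent is named. The promoter driving HNF4A, the form of HNF4A introduced, and whether either population is 1 clone, were not given in the sources used here. If the libraries of a group came from 1 transduced population, p-values measure only the spread between cultures of it, and HNF4A and other differences between the populations cannot be told apart.

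HNF4A itself stood at 8.81, 6.57 and 7.47 FPKM in control replicates 1 to 3 and at 1143, 720.6 and 852 FPKM in overexpression replicates 1 to 3. Every library therefore matched its label, with a 119-fold ratio of means (log2 change 6.70, SE 0.16, limma adjusted p = 9.93e-07; exact two-sided permutation p = 0.1, the smallest that 20 assignments allow). FPKM totals were 615594 to 652879 per library. The FPKM values hold no read counts, so absolute depth is unknown. Of the 14 colorectal epithelial markers checked, EPCAM, KRT8, KRT18 and KRT19 were abundant, with control means of 176, 2259, 2428 and 782 FPKM. In every library KRT20, CDH17, CDX1, GPA33, CEACAM5 and CEACAM6 were at most 0.142 FPKM, and LGALS4 was at most 0.499 FPKM. CDH1, VIL1 and CDX2 are given below. Of 12 markers of other cell types only KRT5 and COL1A1 passed the filter on low values. The summed level of these 12 ran from 1375 to 2042 FPKM in control and from 812 to 1419 FPKM in overexpression, nearly all of it KRT5, a keratin of basal and squamous epithelium. PTPRC, the pan-leukocyte marker, was at 0 in 4 of 6 libraries and at most 0.0860 FPKM. In bulk RNA, fewer cells of a type and less RNA per cell cannot be told apart.

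Sequences before start sites of KLK6, KLK7 and KLK10 are shown. They were picked because these 3 members differed between the groups without overlap while well above 1 FPKM. Each is the 250 bases before a RefSeq start site (GRCh38.p14), written 5′ to 3′ on the strand of the gene, and capitals mark GGGCGG, the GC box bound by Sp1-type factors, on either strand. For KLK7 and KLK10, which have 3 and 2 start sites in the table, the first is shown.
KLK6 promoter, chr19:50969592-50969841, minus strand: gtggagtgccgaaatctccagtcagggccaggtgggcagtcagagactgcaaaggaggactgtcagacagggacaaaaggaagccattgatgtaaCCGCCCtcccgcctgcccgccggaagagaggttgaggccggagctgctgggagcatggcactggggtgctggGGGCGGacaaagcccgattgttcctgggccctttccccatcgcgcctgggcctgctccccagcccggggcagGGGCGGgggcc
KLK7 promoter, chr19:50983918-50984167, minus strand: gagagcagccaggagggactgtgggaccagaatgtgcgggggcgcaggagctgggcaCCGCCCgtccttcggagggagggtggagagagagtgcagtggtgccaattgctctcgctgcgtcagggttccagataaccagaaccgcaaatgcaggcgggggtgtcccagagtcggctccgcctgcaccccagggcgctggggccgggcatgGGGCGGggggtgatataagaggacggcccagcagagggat
KLK10 promoter, chr19:51019862-51020111, minus strand: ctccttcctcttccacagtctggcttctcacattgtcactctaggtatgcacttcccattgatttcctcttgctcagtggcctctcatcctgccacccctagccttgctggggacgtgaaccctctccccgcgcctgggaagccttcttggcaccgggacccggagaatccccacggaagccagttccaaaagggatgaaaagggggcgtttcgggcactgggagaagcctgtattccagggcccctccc
The KLK6 window held 3 GC boxes and 66.8% G and C. The KLK7 window held 2 and 67.2%. The KLK10 window held none and 59.2%, against a median of 58.0% over all promoters in the table.

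Of the 10 members, 8 had promoter entries, 13 windows in all, and KLK1 and KLK8 had none in the table. Both strands were searched for 5 motifs. GGGCGG lay in 8 of the 13 windows, those of KLK6, KLK7, KLK9, KLK11 (second start site only) and KLK13, and in 42.6% of all 35116 windows. CAAAGNNCA, the core of the element HNF4 binds, was in none of the 13 windows and in 4.44% of all. AGGTCA, the nuclear receptor hexamer, was found in the window of the second KLK13 start site and in 12.1% of all windows. In that KLK13 window the match lies inside the annotated gene. All 13 windows overlap the annotated gene of their member, at least in part. An instance of CAAAGNNCA in which NN reads GT contains AGGTCA too, so these motifs overlap. The TATA box TATAAA (10.7% of all windows) and the AP-1 site TGANTCA (6.57%) were in none of the 13. Windows of nearby start sites of 1 gene overlap, and no match says only that these letters are not in these windows.

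KLK6, a trypsin-like protease first described in brain and also made by several carcinomas, was the most abundant member in every library. It stood at 71.8, 98.7 and 103 FPKM in control replicates 1 to 3 and at 282, 245 and 259 FPKM in overexpression replicates 1 to 3. All 3 overexpression libraries were above all 3 control libraries, and control replicate 1 was the lowest of the 6. The means were 91.1 ± 16.8 and 262 ± 18.9 FPKM (SD, n = 3 each), a ratio of 2.88, with single-library ratios from 2.39 to 3.93. Among all gene names of a library, ordered by FPKM, KLK6 ranked 1250, 891 and 821 in control and 262, 298 and 277 in overexpression.

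KLK10, known as NES1 for its expression in normal epithelium, was the third member by level in control and the second in overexpression. Its control libraries held 14.1, 13.6 and 19.4 FPKM and its overexpression libraries 43.5, 35.8 and 45.7 FPKM. All overexpression libraries were above all control libraries, with control replicate 3 the highest of its group. The means were 15.7 ± 3.21 and 41.7 ± 5.22 FPKM (SD, n = 3 each), a ratio of 2.66 (single-library ratios 1.85 to 3.37).

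KLK7, the chymotrypsin-like enzyme that cuts corneodesmosin in skin, was measured at 2.72, 5.48 and 6.05 FPKM in control and at 14.2, 10.8 and 14.9 FPKM in overexpression. The groups did not overlap, and control replicate 1 lay well below the others. Means were 4.75 ± 1.78 and 13.3 ± 2.19 FPKM (SD, n = 3 each), a ratio of 2.80. Single-library ratios spread from 1.78 to 5.48, wider than for KLK6.

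KLK8, also called neuropsin, a trypsin-like protease of brain and epidermis, was low. Control libraries held 0.553, 0.820 and 1.21 FPKM and overexpression libraries 1.81, 0.975 and 2.54 FPKM. Overexpression replicate 2 fell inside the control range, so the groups overlapped although the ratio of means was 2.06. Only 3 of its 6 values reached 1 FPKM, 2 of them in overexpression, so KLK8 passed the filter partly through the group in which it was higher.

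KLK1, tissue kallikrein, which releases kinins from kininogen, lies at the opposite end of the cluster. It held 20.1, 31.3 and 28.7 FPKM in control replicates 1 to 3 and 22.7, 25.6 and 26.1 FPKM in overexpression. All overexpression values lay inside the control range. Means were 26.7 ± 5.83 and 24.8 ± 1.84 FPKM (SD, n = 3 each), a ratio of 0.929.

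**Figure D1:**
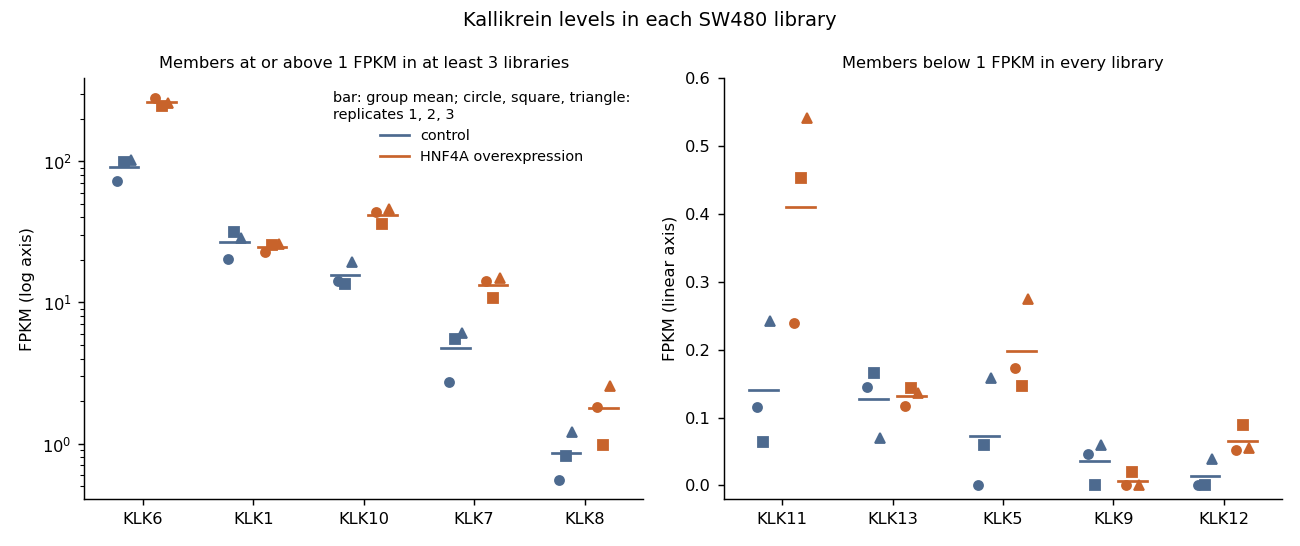
FPKM of the 10 members in each library, on a log axis for the 5 members that passed the filter and on a linear axis for the 5 below 1 FPKM. Points are libraries, with the symbol giving the replicate number, and bars are group means. KLK6, KLK10 and KLK7 stand apart by group, whereas KLK1 and KLK8 overlap.

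The other 5 members were below 1 FPKM in every library. KLK11, a trypsin-like protease, was at 0.115, 0.0636 and 0.243 FPKM in control and at 0.239, 0.452 and 0.542 FPKM in overexpression. Control replicate 3 and overexpression replicate 1 nearly met, and the groups overlapped by that pair. KLK5, the trypsin-like enzyme that activates KLK7 in skin, was at 0, 0.0602 and 0.158 FPKM in control and at 0.173, 0.146 and 0.274 FPKM in overexpression, again with an overlap of 1 library on each side. KLK12, a trypsin-like protease, was listed at 0 in 2 control libraries and at 0.0393 FPKM in the third, against 0.0522, 0.0888 and 0.0551 FPKM in overexpression. Its groups did not overlap, but with 2 libraries listed at 0 no fold is given.

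KLK13, another trypsin-like member, was at 0.145, 0.166 and 0.0703 FPKM in control and at 0.117, 0.143 and 0.137 FPKM in overexpression, so all overexpression values lay inside the control range (ratio of means 1.04). KLK9 was at 0.0467 and 0.0595 FPKM in control replicates 1 and 3 and at 0.0202 FPKM in overexpression replicate 2. In its other 3 libraries the listed value was under 0.0001 FPKM, far less than a whole fragment usually gives, and no fold is given. At these levels the order of KLK11, KLK13, KLK5, KLK9 and KLK12 in control did not separate between neighbours.

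By level, control libraries ran KLK6, KLK1, KLK10, KLK7 and KLK8, and the ranges of neighbours in that order did not overlap. In overexpression the order was KLK6, KLK10, KLK1, KLK7 and KLK8, again with separate ranges, so KLK10 and KLK1 had exchanged places. FPKM is scaled by length, so these levels can be set side by side. The sum over the 10 members was 109.6, 150.1 and 158.6 FPKM in the control libraries, against 365.1, 319 and 349.1 FPKM in overexpression.

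KLK6 made up 65.5, 65.7 and 64.8% of that sum in control and 77.3, 76.8 and 74.2% in overexpression. The share of KLK1 was 18.4, 20.8 and 18.1% in control and 6.21, 8.04 and 7.47% in overexpression. Both shares separated the groups. The share of KLK10 was 12.8, 9.04 and 12.2% against 11.9, 11.2 and 13.1%, and its groups overlapped.

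Ratios between members were taken within each library. The ratio of KLK6 to KLK10 was 5.11, 7.27 and 5.31 in control and 6.49, 6.85 and 5.67 in overexpression. That of KLK6 to KLK7 was 26.5, 18.01 and 16.96 in control and 19.9, 22.7 and 17.4 in overexpression. In both ratios the overexpression range lay within the control range. The ratio of KLK6 to KLK1 was 3.57, 3.15 and 3.58 in control and 12.4, 9.55 and 9.93 in overexpression, without overlap.

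Tests were run over all 14106 gene names with at least 1 FPKM in at least 3 libraries, as limma on log2(FPKM + 1) with Benjamini-Hochberg adjustment and a threshold of 0.05. Of the 10 members, 5 passed this filter, namely KLK1, KLK6, KLK7, KLK8 and KLK10. Of these, 3 (KLK6, KLK7 and KLK10) were among the 480 genes called higher, which are 3.4% of those tested, and 0 were among the 196 called lower, 1.39% of those tested. The same 3 of the 5 had all overexpression libraries above all control libraries, as had 13.8% of tested genes, and 0 of the 5 had all below, as had 10.1%. Because the members were chosen on this contrast, nothing is read from these shares. On the log2(FPKM + 1) scale, which understates the difference of low genes, the difference of means was 1.53 for KLK6, 1.37 for KLK10, 1.35 for KLK7, 0.55 for KLK8 and -0.08 for KLK1, and the median over all tested genes was 0.01.

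Within groups the members did not all follow the same order of libraries. Among the overexpression libraries, replicate 2 was the lowest for KLK5, KLK6, KLK7, KLK8 and KLK10, and for HNF4A, while replicate 1 was the lowest for KLK1, KLK11, KLK12 and KLK13 and replicate 3 for KLK9. Replicate 2 was lowest in its group for 34.1% of tested genes. Such shares cover only genes that passed the filter. KLK5, KLK9, KLK11, KLK12 and KLK13 did not pass it, and their orders rest on values below 1 FPKM. Among the control libraries, replicate 3 was the highest for all members from KLK5 to KLK12, against 33.0% of tested genes, but replicate 2 was the highest for KLK1 and KLK13. Control replicate 1 was the lowest for KLK1, KLK5, KLK6, KLK7, KLK8 and KLK12 (39.9% of tested genes; KLK12 tied at 0 with replicate 2), control replicate 2 for KLK9, KLK10 and KLK11 and control replicate 3 for KLK13. The coefficient of variation of KLK6 was 18.4% in control and 7.21% in overexpression, and that of KLK7 was 37.6 and 16.5%, beside medians of 7.26 and 7.38% over tested genes. The part of single cultures in these orders was not tested.

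In the GENCODE 29 annotation (GRCh38) the cluster spans chr19:50819148-51084245 and holds 16 kallikrein genes. From its KLK1 end these are KLK1, KLK15, KLK3, KLK2, the pseudogene KLKP1, KLK4, and then KLK5 to KLK14 in numerical order, all from KLK5 onwards on the minus strand. KLK6 lies at chr19:50958631-50969673, KLK7 at chr19:50976482-50984099 and KLK10 at chr19:51012739-51020175. Between KLK7 and KLK10 lie KLK8, which overlapped between groups, and KLK9, which was near 0. Only 399 bp separate KLK8 from KLK9.

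Read along the cluster, the ratio of means was 2.71 for KLK5, 2.88 for KLK6, 2.80 for KLK7, 2.06 for KLK8, 2.66 for KLK10 and 2.93 for KLK11, then 1.04 for KLK13. KLK9, between KLK8 and KLK10, was lower in overexpression by its mean (0.0354 FPKM in control, 0.00673 FPKM in overexpression), with overlapping groups. KLK12, between KLK11 and KLK13, was higher without overlap (means 0.0131 and 0.0654 FPKM). No ratio is given for KLK12, which was listed at 0 in 2 control libraries. The ratios of KLK5 and KLK11 rest on values below 1 FPKM, and their groups overlapped. KLK5 was also listed at 0 in control replicate 1. Toward both ends the direction was not shared. KLK14, a trypsin-like skin kallikrein that is no member, was at 0.696, 0.505 and 0.651 FPKM in control and at 0.510, 0.491 and 0.446 FPKM in overexpression, and the groups overlapped at 1 library each. KLK3 was at 0.276, 1.34 and 0.973 FPKM against 0.150, 0.871 and 0.789 FPKM, with a wide overlap. KLK4, which processes enamel proteins in teeth, had means of 0.141 and 0.0299 FPKM and overlapping groups. KLK2, KLK15 and KLKP1 were at most 0.0687 FPKM. None of the other kallikreins passed the filter, so none was tested.

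**Figure D2:**
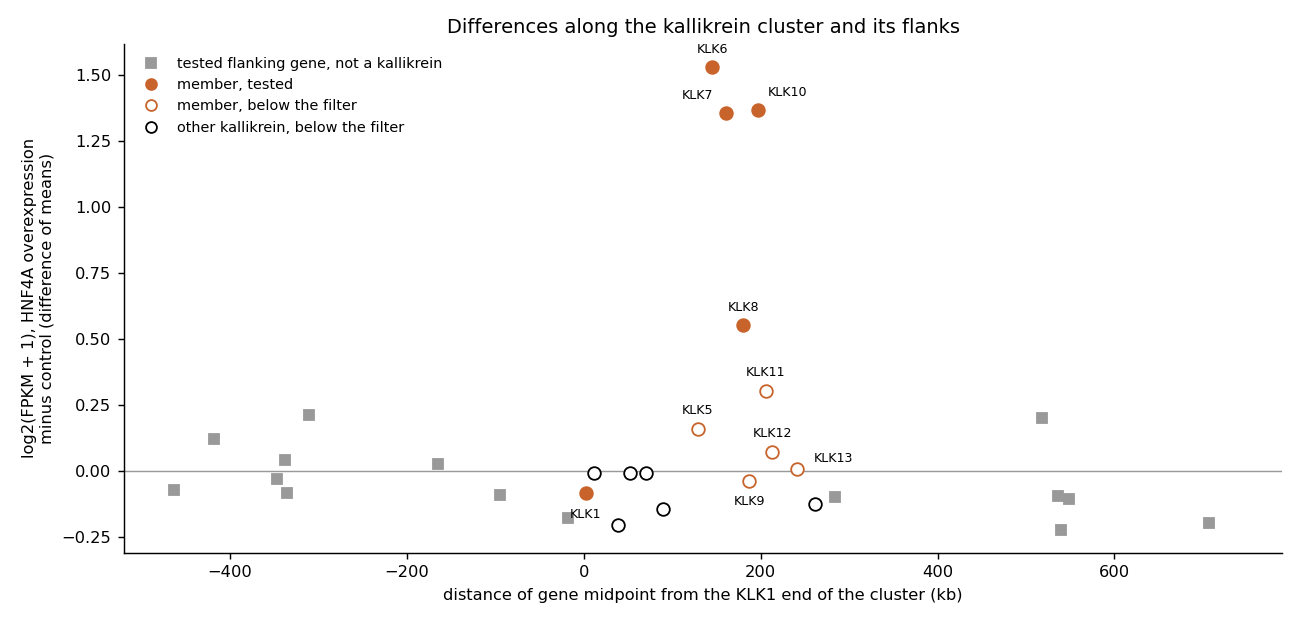
Difference of mean log2(FPKM + 1), overexpression minus control, for the 16 kallikreins of the cluster (circles, members in orange) and tested genes within 500 kb (grey squares), against the distance of the gene midpoint from the KLK1 end in kb. KLK6, KLK7 and KLK10 lie at 1.53, 1.35 and 1.37, and the tested flanking genes lie between -0.22 and 0.21.

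Flanking genes were counted in the same fit, in which 4.79% of tested genes were called in either direction. Of 87 annotated genes within 500 kb or inside the cluster that are no kallikrein, 15 were tested and limma called 0, with 2 at an unadjusted p under 0.05 and a median log2 change of -0.08. A count of 0 in 15 is near that share. At an unadjusted limma p under 0.05 stood 2545 of all 14106 tested genes. Such counts, here and in the lists below, are to be read beside that total. The most abundant were C19orf48, at 171 ± 9.41 FPKM in control and 151 ± 6.34 FPKM in overexpression (SD, n = 3 each, limma adjusted p = 0.128), and ETFB, a subunit of the mitochondrial electron transfer flavoprotein, at 146 ± 16.2 and 136 ± 15.2 FPKM (limma adjusted p = 0.688). Of the 87, 32 were listed at 0 in every library. Among those below the filter and so untested, MYBPC2, LINC01869, AC011483.3, SIGLEC17P and SIGLEC10 were higher without overlap, and SHANK1 was lower. MYBPC2 had means of 0.257 and 1.17 FPKM in control and overexpression, and SHANK1 of 1.01 and 0.649 FPKM. Over the whole data, 17900 gene names above 0 were untested, of which 1243 were higher and 633 lower without overlap.

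Genes annotated across the members bear on how fragments could be assigned. AC011483.3, inside KLK6 on the same strand, was at 0.0657, 0.138 and 0.0525 FPKM in control and at 0.351, 0.545 and 0.596 FPKM in overexpression, without overlap but far below KLK6. AC011473.4 is annotated through KLK8 and KLK9 and shares 31.4% of the 75-base stretches of KLK8 transcripts and 84.4% of those of KLK9, so the values of these 2 members are uncertain. It was itself at or below 0.0810 FPKM in every library. KLK10 shared 0.45% of its 75-base stretches with other genes, and KLK1, KLK5, KLK6, KLK7, KLK11, KLK12 and KLK13 shared none. On the opposite strand, AC011483.2 matches 12.7% of the stretches of KLK6 and 7.22% of those of KLK5. Strand use in counting is not given in the sources used here, and AC011483.2 was at most 0.218 FPKM in any library.

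Genes with a profile most like that of KLK6 were found by subtracting each gene's control mean on the log2(FPKM + 1) scale and averaging the absolute difference from KLK6 over the 6 libraries, among 14101 tested genes outside the cluster. The nearest was ABCB1, the drug efflux pump P-glycoprotein, with a mean absolute difference of 0.132. TMPRSS3, a membrane-bound serine protease, followed at 0.135. KCNE3, a potassium channel subunit of gut epithelium, lay at 0.149, SULT2B1, a hydroxysteroid sulfotransferase, at 0.172 and PPP1R14D, a phosphatase inhibitor subunit, at 0.176. KLK7 lay at 0.175 from KLK6, KLK10 at 0.185 and KLK8 at 0.539. The scale understates the difference of low genes, so nearness on it does not mean a like ratio of means. That ratio was 4.25 for ABCB1, 3.09 for TMPRSS3, 2.98 for KCNE3, 4.65 for SULT2B1 and 11.4 for PPP1R14D. It was 2.88 for KLK6, 2.80 for KLK7 and 2.66 for KLK10. In FPKM, ABCB1 was at 1.49, 2.32 and 2.22 in control and 7.67, 9.03 and 8.92 in overexpression, and TMPRSS3 at 1.77, 2.43 and 2.81 and 7.41, 7.38 and 6.87. PPP1R14D was at 0.305, 0.297 and 0.164 FPKM in control and at 3.52, 2.44 and 2.75 FPKM in overexpression. PPP1R14D therefore passed the filter only through overexpression, so that it had to differ.

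**Figure D3:**
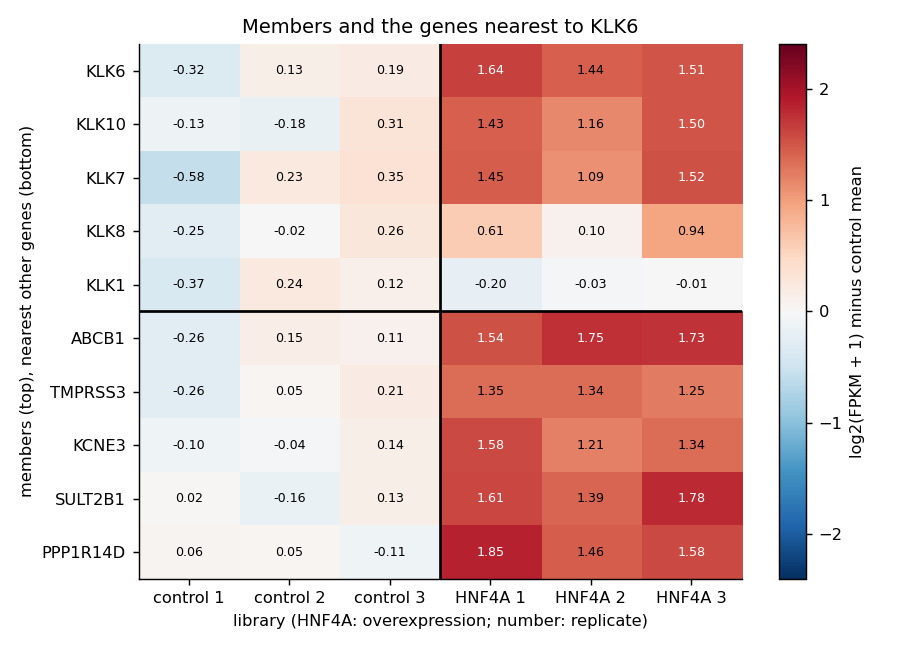
Log2(FPKM + 1) minus the gene's own control mean in each of the 6 libraries, for the 5 members that passed the filter (top rows) and the 5 genes nearest to KLK6 (bottom rows). KLK6, KLK10 and KLK7 share the shading of the lower rows in overexpression, from 1.09 to 1.64, while KLK1 stays between -0.37 and 0.24.

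Among 12 inhibitors of kallikreins and related proteases, 3 were tested, 1 was called higher and 0 lower, with 2 at an unadjusted p under 0.05 (median log2 change 0.24). SERPINA1, alpha-1-antitrypsin, was at 79.8, 82.7 and 76.1 FPKM in control and at 115, 104 and 108 FPKM in overexpression. All 3 overexpression libraries were higher, with a log2 change of 0.45 (SE 0.055, limma adjusted p = 0.00352). SERPINB6, an intracellular serpin known to inhibit KLK8, was at 34.7 ± 2.93 and 41.1 ± 0.827 FPKM (SD, n = 3 each) and missed the threshold (limma adjusted p = 0.086). SPINK5, which encodes LEKTI, and SPINK1, SPINK6 and SPINK9 were listed at 0 in every library.

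Among 13 proteases that can activate kallikrein precursors or act beside them, 5 were tested, 1 was called higher and 0 lower, with 1 at an unadjusted p under 0.05 (median log2 change 0.10). TMPRSS2, a membrane-bound serine protease, was at 0.814, 0.714 and 2.54 FPKM in control and at 5.19, 4.03 and 4.16 FPKM in overexpression. The groups did not overlap, with a log2 change of 1.29 (SE 0.26, limma adjusted p = 0.0293). In control only replicate 3 reached 1 FPKM, so TMPRSS2 passed the filter partly through the group in which it was higher, and its call carries that limit. Of 6 fits with 1 library left out, only that without control replicate 3 kept the call, and adjusted p ran from 0.00215 to 0.0978. With no filter the adjusted p was 0.175. ST14, which encodes matriptase, was at 62.2 ± 3.56 and 66.5 ± 3.33 FPKM (SD, n = 3 each, limma adjusted p = 0.472).

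Of 24 kallikrein substrates and receptors, 9 were tested, 1 was called higher and 0 lower, with 4 at an unadjusted p under 0.05 (median log2 change 0.10). CDH1, E-cadherin, was at 11.2, 13.1 and 11.7 FPKM in control and at 17.98, 17.04 and 18.02 FPKM in overexpression, without overlap (log2 change 0.52, SE 0.070, limma adjusted p = 0.00522). The others at an unadjusted p under 0.05 were lower in overexpression, also without overlap. They were FN1, SCNN1A and TGFB1, with log2 changes of -0.48, -0.47 and -0.24 (limma adjusted p = 0.0782, 0.0861 and 0.104). F2RL1, the protease-activated receptor PAR2 that several kallikreins cut, was at 7.21 ± 0.892 and 7.86 ± 0.725 FPKM (SD, n = 3 each, limma adjusted p = 0.643). KNG1, the kininogen from which KLK1 releases kinins, was listed at 0 throughout, and corneodesmosin, the skin target of KLK7, lay between 0.508 and 0.819 FPKM.

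Several kallikreins are made in cornified epithelium, and genes of that tissue were listed too. Those called did not share a direction. Of 31 listed, 8 were tested, 1 was called higher and 2 lower (median log2 change 0.02). In all libraries 13 of the 31 were below 0.1 FPKM, where a direction cannot be read. S100A9, a subunit of calprotectin, was at 0.140 ± 0.0916 FPKM in control and 4.96 ± 0.572 FPKM in overexpression (SD, n = 3 each), and it passed the filter only through overexpression, so that it had to differ and its call is counted without further weight. KRT6A, a keratin of activated keratinocytes, was at 6.30 ± 1.57 and 1.60 ± 1.14 FPKM (SD, n = 3 each; log2 change -1.59, limma adjusted p = 0.0353), and KRT17 at 11.6 ± 1.59 and 6.10 ± 1.76 FPKM (log2 change -0.85, limma adjusted p = 0.0361). With 1 library left out, the call of KRT6A held only without overexpression replicate 2 or 3 (adjusted p from 0.0232 to 0.116 over the 6 fits). That of KRT17 held only without overexpression replicate 1 or 2 (adjusted p from 0.0274 to 0.117). KRT6A also missed the threshold with a pseudocount of 0.1 (adjusted p = 0.0769), no filter (0.192), the replicate block (0.0569) and limma without trend (0.0592). KRT17 also missed it with no filter (0.185) and without trend (0.0596). KRT5, which overlapped between groups, was at 1765 ± 349 and 1161 ± 315 FPKM (SD, n = 3 each, limma adjusted p = 0.164). Its part in the kallikrein differences was not tested.

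Among 13 hormone and retinoid receptors, a class with members that act on kallikrein genes, 7 were tested, 0 were called higher and 2 lower (median log2 change -0.08, 3 at an unadjusted p under 0.05). The retinoic acid receptors RARA, at 20.1 ± 0.623 and 16.6 ± 0.322 FPKM, and RARG, at 12.99 ± 0.878 and 9.95 ± 0.637 FPKM (SD, n = 3 each), fell by 0.27 and 0.35 on the log2 scale (limma adjusted p = 0.0323 and 0.0386). PGR, the progesterone receptor, was listed at 0 in every library. Among 16 epithelial transcription factors, 8 were tested, 1 was called higher and 2 lower (median log2 change -0.11). ELF3 was at 5.94 ± 0.738 and 10.97 ± 1.38 FPKM (SD, n = 3 each; log2 change 0.78, SE 0.11, limma adjusted p = 0.00601), and missed the threshold with no filter (adjusted p = 0.063). KLF4 and KLF5 fell by 0.36 and 0.24 on the log2 scale (limma adjusted p = 0.0471 and 0.0265). The calls of RARA, RARG, KLF4 and KLF5 were lost in all 6 fits with 1 library left out, with adjusted p from 0.0511 to 0.133.

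Of the 14 colorectal epithelial markers, 7 were tested, and 2 were called higher and 0 lower (median log2 change 0.03). An unadjusted limma p under 0.05 was found for 5 of the 7, and for 2545 of all 14106 tested genes. The 2 called were CDH1, given above, and VIL1, the microvillus protein villin, at 10.8, 10.6 and 14.9 FPKM in control libraries and at 27.2, 34.8 and 34.8 FPKM in overexpression (log2 change 1.35, SE 0.14, limma adjusted p = 0.00182). Villin had no overlap between groups. Of the others at an unadjusted p under 0.05, KRT18 and KRT19 were lower and CDX2 higher in overexpression. KRT18 had means of 2428 and 2050 FPKM in control and overexpression (limma adjusted p = 0.0956). KRT19 had means of 782 and 687 FPKM (limma adjusted p = 0.14), and CDX2 of 18.6 and 25.0 FPKM (limma adjusted p = 0.11). Of the 12 markers of other cell types, 2 were tested and limma called 0, with both at an unadjusted p under 0.05 (KRT5 lower and COL1A1, a collagen of fibroblasts, at 2.18 ± 0.331 and 3.06 ± 0.228 FPKM, SD, n = 3 each).

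**Figure D4:**
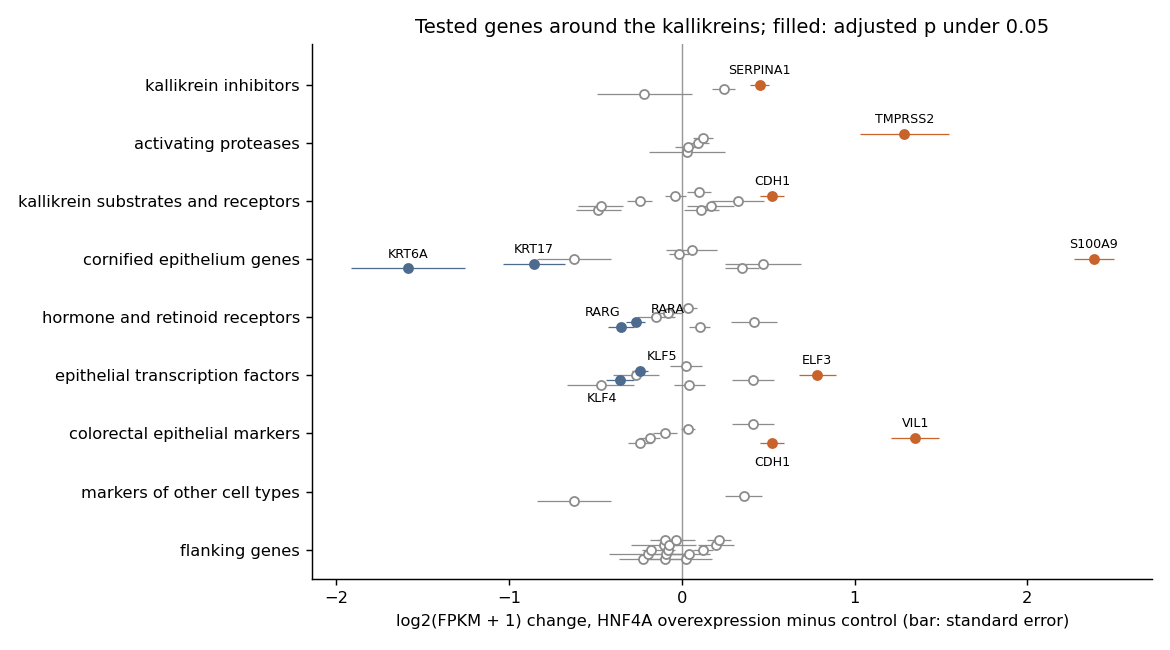
Log2 change (overexpression minus control, log2(FPKM + 1) scale) of the tested genes of each list, with bars for the standard error. Filled points have a limma adjusted p under 0.05, orange higher and blue lower in overexpression. Lists hold 0 to 3 filled points each, and flanking genes hold 0.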

How the data were processed

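Paired-end RNA-seq of 3 control and 3 HNF4A overexpression SW480 libraries was grouped by the labelled genotype. The authors deposited FPKM values per gene name, 60694 rows with 59332 distinct names. Per the submitters' processing notes, the build hg38 is listed together with TopHat, TopHat2, Bowtie, Bowtie2, Cufflinks and FastQC. No version, annotation release, strandedness or normalization setting was given in the sources used here. FPKM keeps no depth, so no counting interval was computed, and the number of libraries limits the precision. FPKM also depends on assumed transcript lengths.

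Where a name stood on several rows, that with the highest mean was used. Genes with at least 1 FPKM in at least 3 libraries (14106) were tested in R 4.3.3 with limma 3.58.1 (group only, mean-variance trend) on log2(FPKM + 1), with Benjamini-Hochberg adjustment over all tested genes. The procedure was tested on simulated data. Standard deviations are on the FPKM scale, between 3 libraries. Positions came from GENCODE 29 (GRCh38), promoters from RefSeq (GRCh38.p14), and shared 75-base stretches from GENCODE 29 transcripts. All 222 listed names had a row, 1 through a synonym.

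The members and lists were chosen with earlier results of these data known. The text names all members, HNF4A, each list's called genes (or, with none, its 2 most abundant) and the 5 genes nearest to KLK6. Other genes named (such as ST14, F2RL1, SERPINB6, KNG1, CDSN, PGR, the SPINK genes, KRT5, KRT20 and PTPRC, and the genes annotated across the members) were chosen for their role after values were seen. FN1, SCNN1A, TGFB1 and CDX2 were named for an unadjusted p under 0.05. Untested flanking genes were named where the groups did not overlap. Alternatives were another pseudocount, other filters, TPM and median-of-ratios scaling, summed rows, a replicate block, limma without trend and leaving out each library.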

Additional observations from a re-analysis of the deposited data

How the results depend on the processing

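Each member was recomputed under 13 alternatives, 9 of which could move a difference of means. Over these the log2 difference ranged from 1.37 to 1.62 for KLK6, from 1.07 to 1.53 for KLK7, from 1.28 to 1.52 for KLK10 and from 0.36 to 0.93 for KLK8. The sign was kept in 9 of 9 for these 4 members, KLK5, KLK9, KLK11 and KLK12, and in 8 of 9 for KLK1 (0.04 without control replicate 2) and KLK13 (-0.03 without control replicate 3). KLK6, KLK7, KLK10 and KLK12 were without overlap under both other scalings too. The total of genes called across the table was 676, against totals of 250 with no filter, 1037 with the replicate block and 361 to 456 with 1 library left out. The total of listed genes called was 12, against totals of 5 with no filter, 20 with the replicate block, 7 by limma without trend and 5 to 7 with 1 library left out. The unfiltered fit tests more genes, and the leave-one-out fits use fewer libraries. For the other changes the cause was not tested. SERPINA1, CDH1, ELF3 and VIL1 passed in 6 of 6 leave-one-out fits, with adjusted p at most 0.0257, but ELF3 missed with no filter (0.063). The log2 change of HNF4A stayed between 6.52 and 6.86. Libraries of the same number deviated together with correlations of 0.14, 0.09 and 0.15, and each library correlated best with its own number, a hint from the data only, since the labels state no shared culture or day. Values below 1 FPKM (5 members) are limited by a depth that FPKM does not give.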
